A study of Homo sapiens with 24 samples.

Results

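Aminoacyl-tRNA synthetases are the enzymes that join each amino acid to its tRNA. The 36 genes described here were taken by symbol from the gene column of all 4 deposited tables, and a symbol with a 1 added, as in newer annotations, counted as the same gene. They are 20 genes for enzymes of the cytosol and 16 for enzymes of the mitochondrion, whose symbols end in 2, out of 58174 genes listed per table. The libraries are of total RNA from 4 human cancer cell lines, each given either a pool of siRNAs against IGF2BP1 (siI1) or a control siRNA (siC), with 3 libraries per group and 24 in all. A549 is a lung cancer line, ES2 an ovarian, MV3 a melanoma and PANC1 a pancreatic cancer line. Cells were harvested 72 h after transfection, or 96 h in PANC1. IGF2BP1 is an RNA-binding protein of the embryo and of many tumours, and the question put by the comparison is how transcript levels change once it is lowered. A single siRNA pool was used, so the loss of IGF2BP1 and other effects of that pool cannot be told apart.

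Each synthetase recognises 1 amino acid and the tRNAs that carry it, and the charged tRNA then serves the ribosome. Cytosolic and mitochondrial translation use separate enzymes for most amino acids, all encoded in the nucleus, while GARS and KARS each supply both compartments from one gene. EPRS joins the glutamate and proline enzymes in one chain, and FARSA and FARSB are the subunits of the phenylalanine enzyme. Several cytosolic enzymes sit together with the scaffold proteins AIMP1, AIMP2 and EEF1E1 in the multisynthetase complex. When a tRNA is left uncharged, the kinase EIF2AK4 (GCN2) phosphorylates EIF2S1, the alpha subunit of eIF2, translation of the transcription factor ATF4 rises, and ATF4 raises amino acid transporters, amino acid synthesis enzymes and a known subset of the cytosolic synthetases.

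IGF2BP1 was lower in the 3 siI1 libraries of every line. In A549 it was at 39.8, 39.8 and 39.6 FPKM in siC and 15.2, 16.4 and 15.2 in siI1, in ES2 at 13.1, 13.97 and 12.1 FPKM in siC and 4.22, 4.19 and 4.03 in siI1, in MV3 at 9.09, 9.64 and 9.06 FPKM in siC and 3.02, 2.95 and 2.77 in siI1, and in PANC1 at 11.2, 11.3 and 10.98 FPKM in siC and 2.75, 2.87 and 2.71 in siI1. Values are FPKM, read counts divided by the length of the gene and by the size of the library. Libraries of A549 held 3105215 to 4553326 reads assigned to genes, those of MV3 15572492 to 20082702, those of ES2 6421764 to 8419467 and those of PANC1 6532175 to 8472851, so that the same FPKM rests on the fewest reads in A549. The RNA RN7SL2, the most abundant in every library, took 8.74% to 12.8% of reads in the siC libraries of PANC1 and 17.7% to 20.9% in its siI1 libraries. Its part in the PANC1 results was not tested. Under other scalings of the libraries, given beside many of the PANC1 values, calls of that line ended, turned direction or were gained. Of the fixed markers of cell type, KRT8 and KRT18 were abundant in A549 and PANC1, while the melanocyte markers SOX10, PMEL, MLANA and S100B lay between 0 and 0.0632 FPKM in MV3. KRT19 was abundant in A549 and PANC1 too. KRT7 lay between 146 and 418 FPKM in A549 but between 1.83 and 3.59 in PANC1. EPCAM was low in both, at 0.784 to 1.73 FPKM in A549 and 1.39 to 3.92 in PANC1. ES2 also held some keratins, with KRT7 at 100 to 160 FPKM and KRT18 at 34.5 to 49.4. KRT8 was lower there, at 8.72 to 13.8 FPKM, and KRT19 and EPCAM reached at most 0.253 and 0.261 FPKM. MITF, also a melanocyte marker, lay between 0.166 and 0.337 FPKM in MV3 and between 6.53 and 7.33 in PANC1. The lung marker NKX2.1 was listed at 0 in A549, the ovarian marker PAX8 reached 0.262 FPKM in ES2, and the leukocyte marker PTPRC reached at most 0.0332 FPKM in any library. Some keratins moved with the knockdown. KRT8 was called in each line, lower in A549 (log2 fold change -1.08) and higher in the others, with 0.51 in ES2, 0.45 in PANC1 (-0.30 and called lower with libraries rescaled to the same sum of FPKM) and 0.24 in MV3. KRT18 was lower in A549, with -1.51, and not called in the others (0.62 in PANC1, -0.087 in ES2 and -0.11 in MV3), and KRT7 was lower in A549 (-1.41), higher in ES2 (0.56) and not called in MV3 or PANC1. The part of the keratins in the results below was not tested.

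ATF4 binds DNA with C/EBP proteins at a composite element whose core reads TGATGNAA. The letters TGATGNAA were searched on both strands of the RefSeq promoters (GRCh38.p14), which run from 250 bases before to 50 bases after each start site. Of the 36 genes, 30 had a promoter there, and 8 of these held the motif, against 4.46% of all genes with a promoter and 3.62% of all single promoters. The 8 were 7 of 16 cytosolic genes and 1 of 14 mitochondrial genes. Windows of 30 bases around the motif are shown because a larger share of these genes than of all genes held the motif. They read 5′ to 3′ on the gene's own strand with the motif in capitals, as TGATGNAA or as its reverse complement.
AARS: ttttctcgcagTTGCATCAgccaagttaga
CARS: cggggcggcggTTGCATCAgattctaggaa
IARS: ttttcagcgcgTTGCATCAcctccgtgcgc
MARS: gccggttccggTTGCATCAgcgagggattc
TARS: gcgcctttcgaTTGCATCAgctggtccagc
NARS: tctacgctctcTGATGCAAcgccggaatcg
GARS: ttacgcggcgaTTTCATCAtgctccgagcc
YARS2: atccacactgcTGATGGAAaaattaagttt
The first 6 hold the exact letters TGATGCAA on one strand or the other, which 0.866% of all promoters and 1.08% of all genes hold, while GARS and YARS2 differ from them at the free position. The window of AARS lies at chr16:70289675-70289704 and its motif begins 187 bases before the RefSeq start site. Those of CARS (chr11:3057407-3057436), MARS (chr12:57488053-57488082) and IARS (chr9:92293692-92293721) have motifs that begin 2, 4 and 13 bases before it. In GARS (chr7:30594834-30594863) the motif begins 33 bases before 1 of the annotated starts, and in YARS2 (chr12:32756076-32756105) 197 bases before. In TARS (chr5:33440956-33440985) and NARS (chr18:57621804-57621833) it begins at the 3rd and the 15th base after the RefSeq start and so lies within the sequence transcribed from that start. The gene spans of GENCODE also take in the windows of AARS, CARS, IARS, MARS and GARS, so the place depends on the start chosen. DARS, LARS, VARS, YARS, AARS2 and VARS2 were not matched.

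In the control libraries the cytosolic genes were the more abundant class. Their median level was 20.8 FPKM in A549, 24.2 in PANC1, 28.7 in MV3 and 32.8 in ES2, against 8.64, 5.56, 10.6 and 8.58 FPKM for the mitochondrial genes. RARS, the arginine enzyme, stood first in each line, at 64.9 ± 2.44 FPKM (SD, n = 3) in A549, 84.4 ± 4.15 in ES2, 55.6 ± 2.09 in PANC1 and 57.0 ± 2.45 in MV3. In MV3 its mean was within the spread of that of NARS, the asparagine enzyme, at 55.4 ± 1.61 FPKM. IARS2, the mitochondrial isoleucine enzyme, was the exception among mitochondrial genes, in second place in A549 with 60.9 ± 3.71 FPKM and in PANC1 with 52.0 ± 1.21 FPKM. At the other end, VARS2 (mitochondrial valine) lay between 0.290 and 1.01 FPKM over all libraries and passed the filter of a mean of at least 0.5 FPKM in ES2 alone, which left 35 members tested in each of the other lines. GENCODE release 44 places 63.0% of its exon bases, and 48.2% of those of SARS2 (mitochondrial serine), under exons of another gene on the same strand, so the values of these 2 genes are uncertain. Each table was normalised on its own, and levels are therefore not compared between lines.

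After the knockdown, synthetase mRNAs fell mainly in MV3 and ES2. A gene is called lower or higher where limma's two-sided test on log2(FPKM + 0.5) gave an adjusted p below 0.05 over all genes tested in that line. In MV3, 20 of 35 members tested were lower and 2 higher, against 19.5% of all genes tested lower and 16.3% higher (26.8% and 19.6% of protein-coding genes). In ES2, 15 of 36 were lower and 1 higher, against 13.0% and 10.5% of all genes (17.9% and 13.4% of protein-coding genes). PANC1 had 6 lower and 3 higher of 35, with 13.4% and 11.3% of all genes called (17.3% and 13.6% of protein-coding genes). A549 had 5 lower and 2 higher of 35, with 7.83% and 5.93% of all genes called (11.4% and 7.94% of protein-coding genes). The shares of members lower in A549 and PANC1 were thus near those of protein-coding genes, while those in ES2 and MV3 lay above them. Over all 4 lines 29 of the 36 genes were called at least once and 7 never. The share of all genes called at least once was not worked out, so these counts describe the members only. In bulk RNA, a lower level in each cell and fewer cells that express the gene cannot be told apart.

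**Figure D1:**
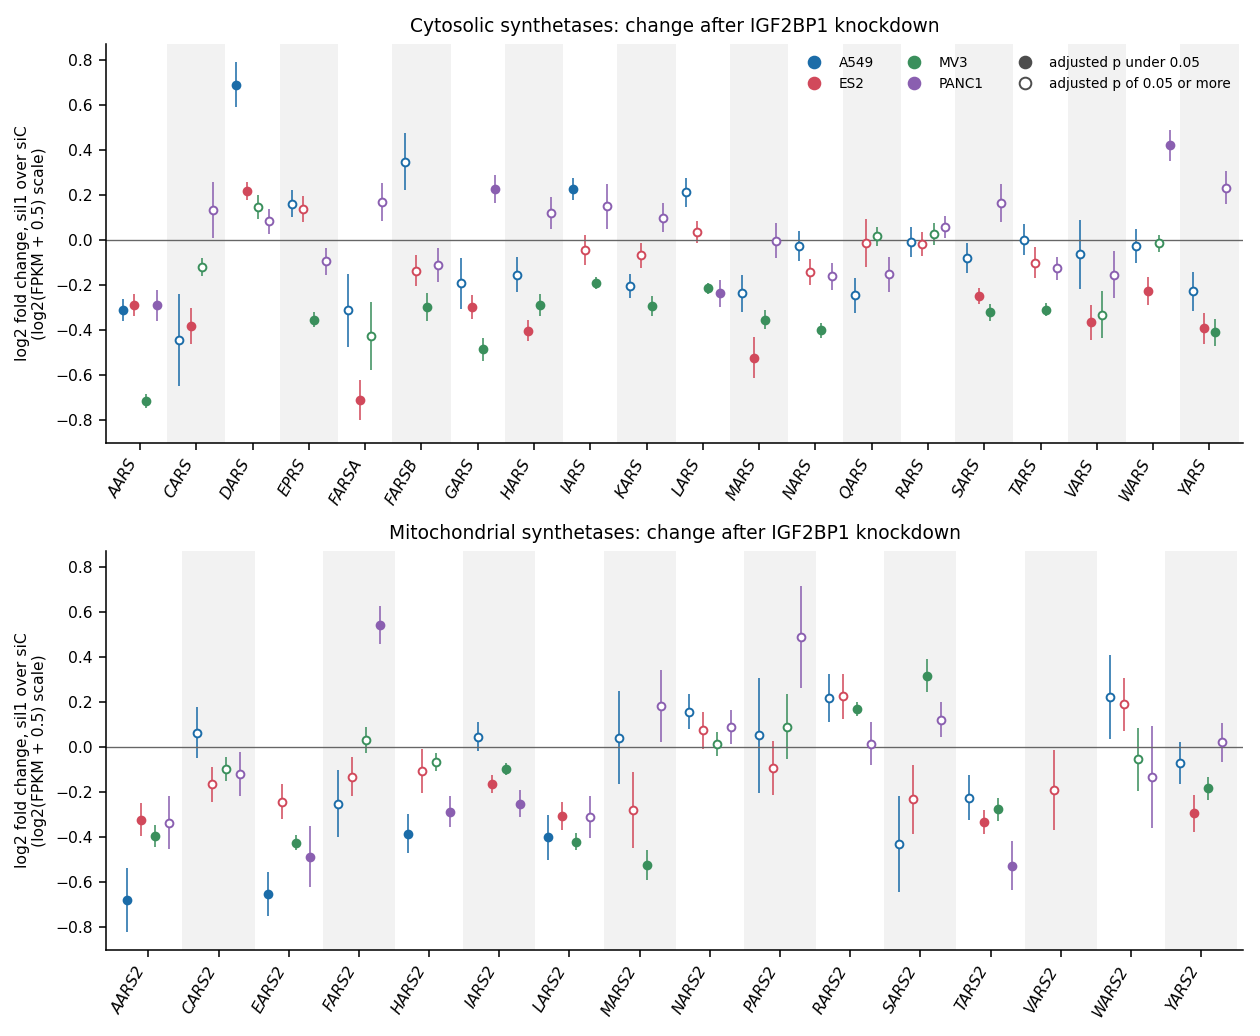
Log2 fold change (siI1 over siC, log2(FPKM + 0.5) scale, bars 1 SE) of each cytosolic (top) and mitochondrial (bottom) synthetase gene in the 4 lines, filled where the adjusted p was below 0.05. AARS is filled and below 0 in all 4 lines, and the filled points of MV3 lie below 0 for 20 genes and above 0 for 2.

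Leaving out any 1 library lowered the counts of lower members in A549 and PANC1. A fit with 1 library fewer also has less power, and the counts of all genes under these omissions are not given here. In A549, 3 members were lower without siC replicate 1, without siC replicate 2 or without siI1 replicate 3, and 2 without any of the other 3 libraries. The 2 members higher in A549 became 3 without siC replicate 2 and 1 without any other library. In PANC1 the 6 lower members became 0 without siC replicate 1 or siC replicate 3, 1 without siI1 replicate 3, 3 without siC replicate 2 or siI1 replicate 1, and 4 once siI1 replicate 2 was left out. The 3 higher members of PANC1 became 4 without siC replicate 2, stayed 3 without siI1 replicate 1 and became 2 without any other library. In ES2 the 15 lower members became 9 without siI1 replicate 3, 10 without siC replicate 3 or siI1 replicate 2, and 11 or 12 without the others. The 2 higher members of MV3 became 1 without siI1 replicate 3 and 3 without siC replicate 1, and its lower members numbered between 18 and 22. Libraries rescaled to the same sum of FPKM, a scaling that moved the median of all genes in PANC1 from -0.036 to -0.68, gave 30 lower and 0 higher members in PANC1 and left 6 lower in ES2. The same sum of reads, with a median of -0.18, gave 13 lower in PANC1.

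The medians of the cytosolic and mitochondrial classes lay farthest apart in MV3 and PANC1. In MV3, 13 of 20 cytosolic genes were lower and none higher, with a median log2 fold change of -0.30, while 7 of 15 mitochondrial genes were lower and 2 higher, with a median of -0.095. In ES2 the medians were alike, -0.18 and -0.18, with 10 of 20 cytosolic and 5 of 16 mitochondrial genes lower and 1 cytosolic gene higher. A549 had medians of -0.071 and -0.07, with 1 cytosolic and 4 mitochondrial genes lower and 2 cytosolic genes higher. In PANC1 the cytosolic median was 0.071, with 2 genes lower and 2 higher, and the mitochondrial median -0.12, with 4 lower and 1 higher, but with libraries rescaled to the same sum of reads or of FPKM the cytosolic median of PANC1 fell below 0, to -0.092 or -0.68. The medians of all genes tested were -0.036 in PANC1, -0.019 in ES2, -0.013 in A549 and 0.01 in MV3, and those of protein-coding genes -0.038, -0.033, -0.031 and -0.022. As background to the counts, 13.4%, 13.0%, 7.83% and 19.5% of all genes tested were lower in these lines, in the same order. The shares higher were 11.3%, 10.5%, 5.93% and 16.3%. Among protein-coding genes 17.3%, 17.9%, 11.4% and 26.8% were lower and 13.6%, 13.4%, 7.94% and 19.6% higher. Mitochondrial genes had fewer reads and wider errors, with a median standard error of 0.051 in MV3 and 0.095 in PANC1 against 0.042 and 0.07 for cytosolic genes.

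**Figure D2:**
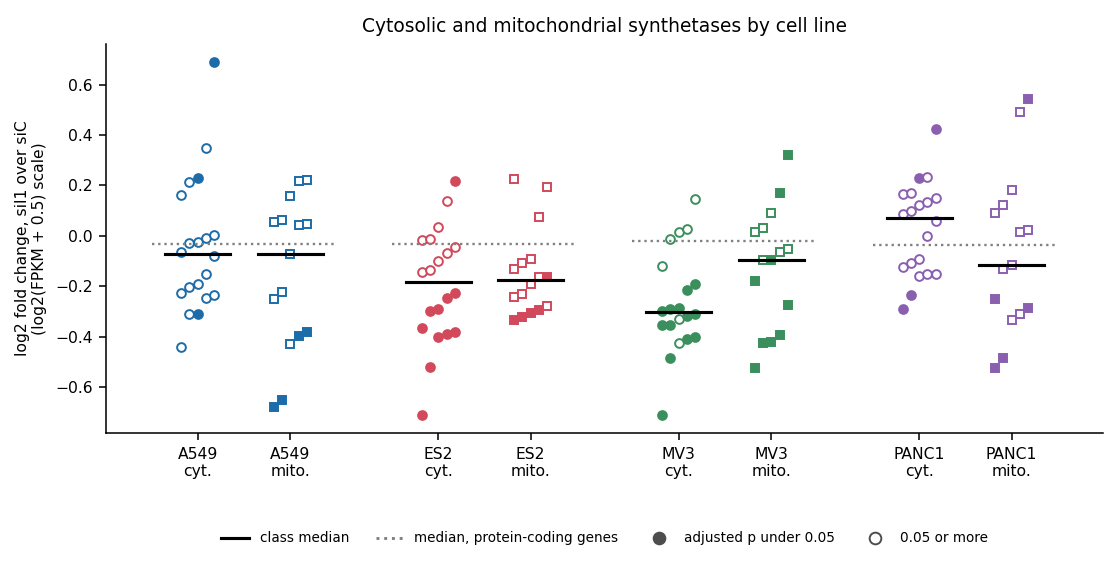
Log2 fold change (siI1 over siC) of the cytosolic (circles) and mitochondrial (squares) synthetase genes in each line, filled where the adjusted p was below 0.05, with the class median as a black bar and the median of protein-coding genes as a dotted line. The cytosolic bar lies lowest in MV3, at -0.30, and above 0 in PANC1 alone, at 0.071 on the deposited scale and below 0 there with libraries rescaled to the same sum of reads or of FPKM.

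The summed levels of the classes gave a ratio that does not depend on how a library is scaled. In MV3 the 20 cytosolic genes summed to 599, 585 and 562 FPKM in siC and to 480, 479 and 480 FPKM in siI1, and the 16 mitochondrial genes to 184, 180 and 178 FPKM and to 163, 166 and 167 FPKM. The ratio of the cytosolic to the mitochondrial sum was 3.25, 3.25 and 3.15 in the siC libraries of MV3 and 2.94, 2.88 and 2.87 in its siI1 libraries, so it was lower in each knockdown library. PANC1 showed the other order, with ratios of 3.23, 3.27 and 2.99 in siC and 3.37, 3.37 and 3.55 in siI1. Abundant genes weigh most in these sums. In PANC1, IARS2 alone had a mean of 51.95 FPKM of a mitochondrial sum of 164.4 in siC, and 43.64 of 153.0 in siI1. The ratios of A549 were also higher after knockdown, at 2.97, 2.83 and 2.92 in siC and 3.01, 3.1 and 3.24 in siI1. Those of ES2 overlapped, with 4.47, 4.36 and 4.23 in siC and 4.53, 4.37 and 4.48 in siI1.

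AARS, the alanine enzyme of the cytosol (ENSG00000090861, chr16:70251983-70289707, minus strand in hg38), was the one synthetase gene lower in all 4 lines. Of the genes that could be tested throughout, 2.51% fell in all 4 lines and 0.577% rose in all 4 (3.28% and 0.705% of protein-coding genes), against 1 and 0 of the 35 members. In MV3 AARS stood at 48.1, 46.6 and 46.7 FPKM in siC and 28.1, 28.2 and 29.5 in siI1. In A549 it was at 51.5, 47.4 and 48.7 FPKM in siC and 39.1, 40.4 and 39.3 in siI1, and in ES2 at 62.6, 68.1 and 63.3 FPKM in siC and 53.0, 51.0 and 54.5 in siI1. The PANC1 libraries held 28.9, 31.8 and 29.7 FPKM in siC and 26.5, 23.2 and 24.02 in siI1. No siI1 library reached a siC library of its line, and the fall was largest in MV3, where it came to 39.0% on this scale. The log2 fold changes (± SE) were -0.31 ± 0.049 (adjusted p = 0.0116) in A549, -0.29 ± 0.049 (adjusted p = 0.00868) in ES2, -0.71 ± 0.031 (adjusted p = 9.96e-05) in MV3 and -0.29 ± 0.069 (adjusted p = 0.0271) in PANC1. The call in PANC1 was lost without any 1 library other than siI1 replicate 1, with adjusted p up to 0.0835, and those in the other lines held without any 1 library.

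Mitochondrial genes lower in 3 lines numbered 5 of the 15 tested in every line. The share of all genes lower in 3 lines was not worked out, so this count describes the members only. AARS2, the mitochondrial alanine enzyme (ENSG00000124608, chr6:44298731-44313347, minus strand), was at 5.19, 6.08 and 7.48 FPKM in siC and 3.90, 3.48 and 3.68 in siI1 in A549. It was at 8.84, 10.1 and 9.68 FPKM in siC and 8.08, 7.26 and 7.27 in siI1 in ES2 and at 8.44, 8.21 and 8.10 FPKM in siC and 5.80, 6.45 and 6.23 in siI1 in MV3. In PANC1, where it was not called on the deposited scale, it was at 4.04, 3.99 and 4.74 FPKM in siC and 2.89, 3.17 and 3.77 in siI1. Each siI1 library of AARS2 lay below each siC library in all 4 lines. Its log2 fold changes were -0.68 ± 0.14 (adjusted p = 0.0285) in A549, -0.32 ± 0.075 (adjusted p = 0.0272) in ES2, -0.39 ± 0.05 (adjusted p = 0.00173) in MV3 and -0.34 ± 0.12 (adjusted p = 0.088) in PANC1. The call in A549 rested on 54 to 141 reads per library and was lost without any 1 library but siC replicate 1 (adjusted p up to 0.0899), and the call in ES2 was lost without siC replicate 2, siC replicate 3, siI1 replicate 2 or siI1 replicate 3 (up to 0.0926).

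EARS2, which charges the glutamate tRNA of mitochondria (ENSG00000103356, chr16:23520754-23557731, minus strand), also stood apart in every line. A549 had 11.3, 13.4 and 12.4 FPKM in siC and 8.52, 7.25 and 7.34 in siI1, and MV3 12.2, 11.8 and 11.7 FPKM in siC and 8.56, 8.84 and 8.78 in siI1. In PANC1 the libraries held 9.91, 9.25 and 10.1 FPKM in siC and 7.48, 7.81 and 5.41 in siI1, with siI1 replicate 3 the lowest of its group. In ES2 they held 9.67, 11.3 and 10.5 FPKM in siC and 9.26, 8.84 and 8.28 in siI1, the narrowest gap of the 4 lines. The log2 fold changes were -0.65 ± 0.097 (adjusted p = 0.00922) in A549, -0.24 ± 0.077 (adjusted p = 0.0694) in ES2, -0.42 ± 0.035 (adjusted p = 0.000427) in MV3 and -0.49 ± 0.14 (adjusted p = 0.045) in PANC1. The PANC1 call was lost with median-of-ratios scaling, in which each library is divided by its median ratio to the geometric means of the genes (adjusted p = 0.0542), and without any siC library or siI1 replicate 1, with adjusted p up to 0.122.

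LARS2, the mitochondrial leucine enzyme (ENSG00000011376, chr3:45388561-45554726, plus strand), had 16.03, 16.03 and 15.1 FPKM in siC and 11.4, 11.9 and 11.6 in siI1 in MV3 and 14.2, 14.9 and 16.04 FPKM in siC and 11.9, 11.8 and 12.6 in siI1 in ES2. Its A549 libraries held 8.32, 9.55 and 7.83 FPKM in siC and 5.94, 6.40 and 6.75 in siI1 and its PANC1 libraries 5.38, 5.77 and 5.87 FPKM in siC and 4.85, 4.66 and 3.97 in siI1. The groups did not overlap in any line, and the sizes were close to each other. Tested across genes, its log2 fold changes were -0.40 ± 0.10 (adjusted p = 0.0491) in A549, -0.30 ± 0.061 (adjusted p = 0.0155) in ES2, -0.42 ± 0.039 (adjusted p = 0.000577) in MV3 and -0.31 ± 0.092 (adjusted p = 0.0538) in PANC1. With libraries rescaled to the same sum of reads or of FPKM, LARS2 was called lower in PANC1 too, at -0.46 and -1.0. The A549 call was lost without any 1 library (adjusted p up to 0.131), and the ES2 call without siI1 replicate 1 or siI1 replicate 2 (up to 0.0544).

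TARS2, the mitochondrial threonine enzyme (ENSG00000143374, chr1:150487414-150507602, plus strand), was lower in ES2, MV3 and PANC1. It was at 4.39, 4.38 and 4.41 FPKM in siC and 3.37, 2.53 and 2.86 in siI1 in PANC1, at 8.67, 9.01 and 9.01 FPKM in siC and 7.10, 6.91 and 6.88 in siI1 in ES2 and at 11.4, 10.9 and 10.2 FPKM in siC and 8.88, 8.56 and 9.14 in siI1 in MV3. In A549 the libraries held 8.78, 9.80 and 8.11 FPKM in siC and 6.94, 7.87 and 7.82 in siI1, also without overlap. Fitted log2 fold changes were -0.22 ± 0.098 (adjusted p = 0.204) in A549, -0.33 ± 0.053 (adjusted p = 0.00671) in ES2, -0.28 ± 0.051 (adjusted p = 0.00727) in MV3 and -0.53 ± 0.11 (adjusted p = 0.0164) in PANC1, the last of which was lost without siC replicate 1, siC replicate 3 or siI1 replicate 3 (adjusted p up to 0.0594).

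IARS2, the mitochondrial isoleucine enzyme (ENSG00000067704, chr1:220094132-220148041, plus strand), fell by less. It was at 50.8, 51.9 and 53.2 FPKM in siC and 43.4, 46.3 and 41.2 in siI1 in PANC1, at 45.0, 42.6 and 45.1 FPKM in siC and 39.4, 39.1 and 39.8 in siI1 in ES2 and at 38.2, 37.9 and 37.1 FPKM in siC and 35.6, 34.7 and 35.7 in siI1 in MV3. The A549 libraries overlapped, with 61.5, 64.3 and 57.0 FPKM in siC and 61.9, 66.7 and 60.3 in siI1. The log2 fold changes were 0.048 ± 0.065 (adjusted p = 0.696) in A549, -0.16 ± 0.04 (adjusted p = 0.0322) in ES2, -0.095 ± 0.027 (adjusted p = 0.036) in MV3 and -0.25 ± 0.059 (adjusted p = 0.0254) in PANC1. None of its 3 calls held without each library: the call in ES2 was kept only without siC replicate 2 (adjusted p up to 0.0933 otherwise), that in MV3 only without siC replicate 3 (up to 0.116), and that in PANC1 only without siC replicate 2 or siI1 replicate 2 (up to 0.0828). Libraries rescaled to the same sum of reads or of FPKM also ended the calls in ES2 and MV3.

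**Figure D3:**
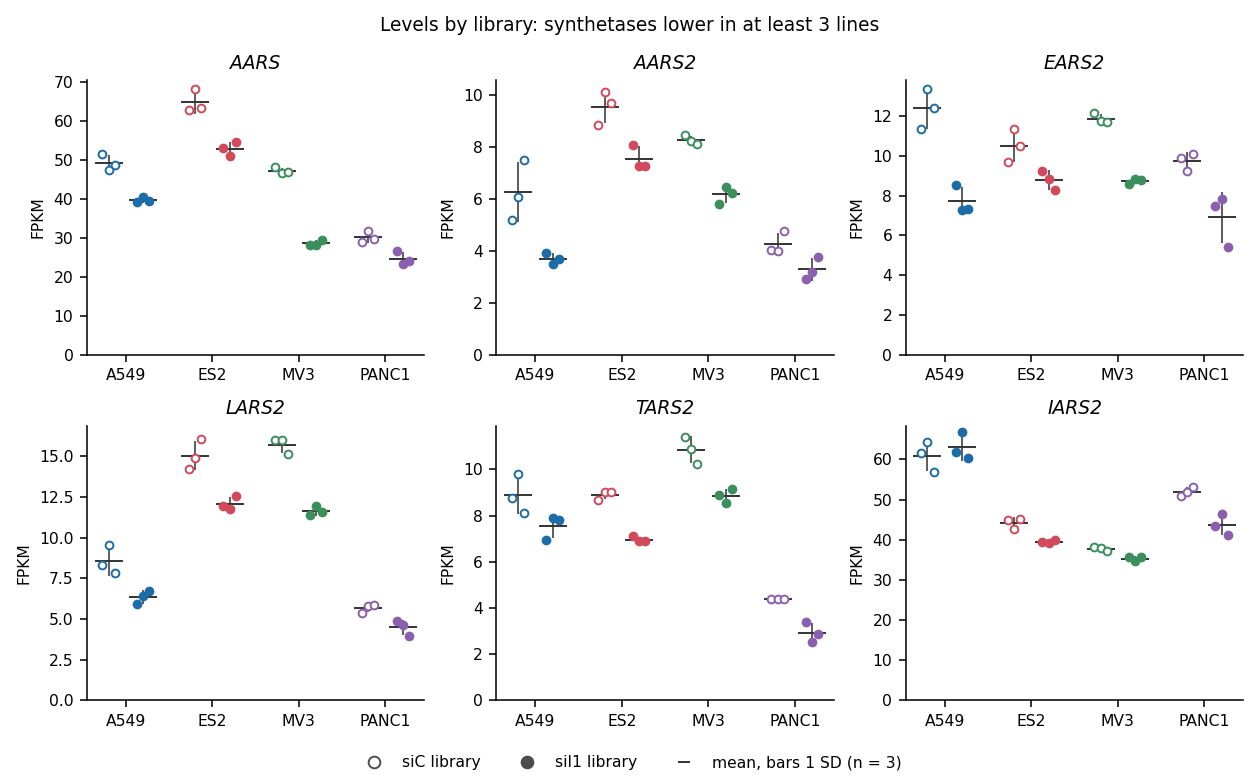
FPKM of the 6 synthetase genes called lower in at least 3 lines, with 1 point per library (open siC, filled siI1) and bars for the mean ± SD of 3 libraries. In AARS, AARS2, EARS2, LARS2 and TARS2 the siI1 points lie below the siC points of every line, and in IARS2 they overlap in A549.

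GARS, WARS and IARS were called in opposite directions in different lines. GARS, the glycine enzyme (ENSG00000106105, chr7:30580533-30634033, plus strand), was at 30.6, 31.6 and 31.3 FPKM in siC and 20.8, 22.0 and 23.7 in siI1 in MV3 and at 41.1, 41.0 and 39.2 FPKM in siC and 34.9, 31.6 and 32.1 in siI1 in ES2. In PANC1 it was at 44.6, 46.1 and 40.7 FPKM in siC and 50.6, 50.5 and 52.9 in siI1. All siI1 libraries were thus below siC in MV3 and ES2 and above in PANC1, while those of A549 overlapped, with 21.7, 22.6 and 22.0 FPKM in siC and 19.1, 16.6 and 22.8 in siI1. Tested across genes, its log2 fold changes were -0.19 ± 0.11 (adjusted p = 0.339) in A549, -0.30 ± 0.052 (adjusted p = 0.00966) in ES2, -0.48 ± 0.05 (adjusted p = 0.000838) in MV3 and 0.23 ± 0.062 (adjusted p = 0.0397) in PANC1, but the PANC1 value was 0.065 with libraries rescaled to the same sum of reads and -0.52 with the same sum of FPKM. The call in PANC1 was kept only without siC replicate 2 among the 6 libraries left out in turn (adjusted p up to 0.112 otherwise).

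WARS, the tryptophan enzyme (ENSG00000140105, chr14:100333790-100376805, minus strand), is also known to be induced by interferon. It was at 8.04, 8.06 and 7.27 FPKM in siC and 10.4, 11.2 and 10.2 in siI1 in PANC1 and at 15.3, 14.6 and 14.8 FPKM in siC and 13.6, 12.5 and 11.9 in siI1 in ES2. The groups stood apart in these lines, in opposite directions, and overlapped in A549 and MV3. Fitted log2 fold changes were -0.025 ± 0.077 (adjusted p = 0.88) in A549, -0.23 ± 0.063 (adjusted p = 0.0455) in ES2, -0.014 ± 0.038 (adjusted p = 0.819) in MV3 and 0.42 ± 0.07 (adjusted p = 0.00821) in PANC1, with 0.27 and -0.29 in PANC1 for libraries rescaled to the same sum of reads and of FPKM. The PANC1 call held without any 1 library, and the ES2 call was kept only without siI1 replicate 1 (adjusted p up to 0.134 otherwise). GENCODE places 10.6% of its exon bases opposite exons of genes on the other strand.

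IARS, the cytosolic isoleucine enzyme (ENSG00000196305, chr9:92210207-92293854, minus strand), was at 42.3, 43.1 and 44.4 FPKM in siC and 49.0, 50.4 and 53.0 in siI1 in A549. In MV3 it was at 43.4, 43.7 and 42.9 FPKM in siC and 38.3, 38.3 and 37.2 in siI1. Its siI1 libraries were all above siC in A549 and all below in MV3, and they overlapped in ES2 and PANC1. The log2 fold changes were 0.23 ± 0.049 (adjusted p = 0.0294) in A549, -0.043 ± 0.067 (adjusted p = 0.698) in ES2, -0.19 ± 0.026 (adjusted p = 0.00235) in MV3 and 0.15 ± 0.10 (adjusted p = 0.325) in PANC1. With libraries rescaled to the same sum of FPKM, IARS was called lower in PANC1, at -0.59. The A549 call was lost without any 1 library, with adjusted p from 0.0506 to 0.103, and the MV3 call held without each.

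DARS, the aspartate enzyme (ENSG00000115866, chr2:135905881-135986100, minus strand), was the cytosolic gene that rose most. In A549 it was at 23.0, 22.3 and 17.9 FPKM in siC and 32.8, 35.2 and 34.4 in siI1, a rise of 61.5% on this scale. It was at 32.6, 31.1 and 32.2 FPKM in siC and 37.4, 37.0 and 37.5 in siI1 in ES2, at 18.6, 16.6 and 16.8 FPKM in siC and 19.4, 19.7 and 18.6 in siI1 in MV3 and at 33.3, 30.9 and 30.1 FPKM in siC and 34.0, 33.1 and 33.0 in siI1 in PANC1. The groups stood apart in A549 and ES2 and touched or overlapped in the other lines. Its log2 fold changes were 0.69 ± 0.10 (adjusted p = 0.00888) in A549, 0.22 ± 0.038 (adjusted p = 0.00952) in ES2, 0.15 ± 0.052 (adjusted p = 0.069) in MV3 and 0.085 ± 0.055 (adjusted p = 0.314) in PANC1. The calls in A549 and ES2 held without any 1 library. With libraries rescaled to the same sum of FPKM, DARS was called lower in PANC1, at -0.66.

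FARSA and MARS had the largest falls of ES2. FARSA, the catalytic subunit of the phenylalanine enzyme (ENSG00000179115, chr19:12922479-12934037, minus strand), was at 28.7, 34.7 and 33.8 FPKM in siC and 20.2, 18.2 and 20.4 in siI1 there, a log2 fold change of -0.71 ± 0.087 (adjusted p = 0.00269). Its partner subunit FARSB had -0.14 ± 0.069 (adjusted p = 0.216) in ES2, where its groups overlapped. In the other lines FARSA was not called on the deposited scale, with -0.31 in A549, -0.42 in MV3 and 0.17 in PANC1. FARSA was called lower in PANC1, at -0.56, with libraries rescaled to the same sum of FPKM. MARS, the methionine enzyme (ENSG00000166986, chr12:57475445-57517569, plus strand), was at 27.4, 28.2 and 25.0 FPKM in siC and 21.0, 18 and 16.9 in siI1 in ES2 and at 13.2, 13.7 and 13.5 FPKM in siC and 10.0, 10.9 and 10.5 in siI1 in MV3. These are log2 fold changes of -0.52 ± 0.09 (adjusted p = 0.00912) and -0.35 ± 0.041 (adjusted p = 0.00129), and both held without any 1 library. In A549 and PANC1 MARS had -0.24 ± 0.083 (adjusted p = 0.125) and -0.001 ± 0.079 (adjusted p = 0.995). With libraries rescaled to the same sum of FPKM, MARS was called lower in PANC1, at -0.74. The gene overlaps DDIT3 and other genes on the opposite strand over 12.4% of its exon bases.

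Another 4 mitochondrial genes were among the 2 largest falls or rises called in a line. FARS2, the mitochondrial phenylalanine enzyme (ENSG00000145982, chr6:5261044-5829192, plus strand), was at 5.61, 5.65 and 5.07 FPKM in siC and 8.71, 8.35 and 7.43 in siI1 in PANC1, the largest rise of that line at 0.54 ± 0.084 (adjusted p = 0.00662). With libraries rescaled to the same sum of FPKM it was -0.16, below 0, and with the same sum of reads 0.39. In the other lines FARS2 was not called, with -0.25 in A549, -0.13 in ES2 and 0.032 in MV3. MARS2, the mitochondrial methionine enzyme (ENSG00000247626, chr2:197705369-197708395, plus strand), was at 3.54, 3.83 and 3.46 FPKM in siC and 2.26, 2.32 and 2.497 in siI1 in MV3, a log2 fold change of -0.52 ± 0.068 (adjusted p = 0.00191), and overlapped in the other lines. RARS2, for arginine (ENSG00000146282, chr6:87513459-87590028, minus strand), and SARS2, for serine (ENSG00000104835, chr19:38915266-38930763, minus strand), were the 2 members higher in MV3. RARS2 was at 17.5, 17.8 and 17.96 FPKM in siC and 20.4, 19.5 and 20.1 in siI1, with 0.17 ± 0.031 (adjusted p = 0.0074), and its estimates in the other lines were 0.22 in A549, 0.23 in ES2 and 0.017 in PANC1. SARS2 was at 2.32, 2.61 and 2.62 FPKM in siC and 3.21, 3.13 and 3.45 in siI1 with 0.32 ± 0.072 (adjusted p = 0.0163), a call lost without siI1 replicate 3 (adjusted p = 0.0588), and it had -0.43 ± 0.21 (adjusted p = 0.251) in A549.

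**Figure D4:**
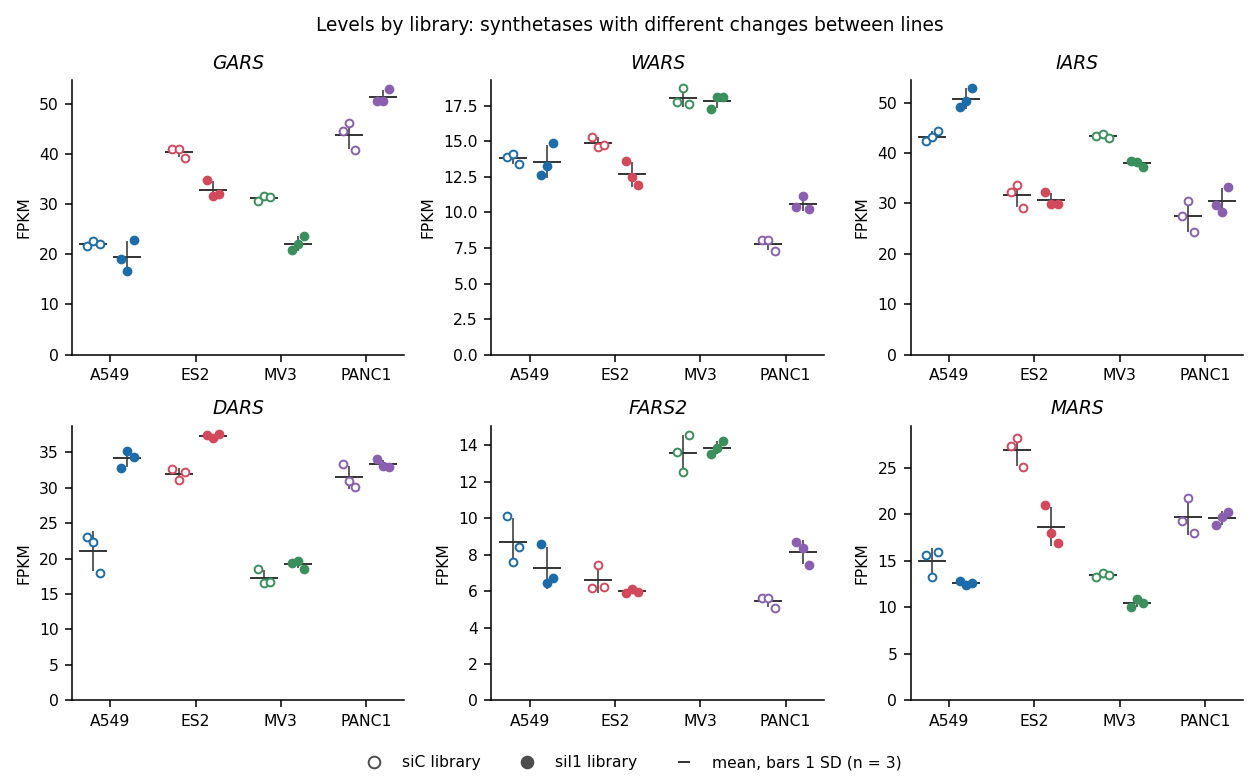
FPKM by library of GARS, WARS, IARS, DARS, FARS2 and MARS in the 4 lines (open siC, filled siI1, bars mean ± SD of 3 libraries). The siI1 points of GARS lie below siC in ES2 and MV3 and, on the deposited scale, above it in PANC1, and those of DARS lie above siC in A549 and ES2.

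Whether a change differed between lines was tested by an F test of the line by knockdown term over all 24 libraries. It was past the threshold for 20 of 35 members, against 45.0% of all genes tested in every line and 54.8% of protein-coding genes, so the whole set was near the background. By class the counts were 17 of 20 cytosolic and 3 of 15 mitochondrial genes. The adjusted p was 5.44e-05 for WARS, 6.03e-05 for EPRS, 0.00013 for AARS, 0.000193 for DARS, 0.000285 for GARS and 0.00716 for IARS. The 3 mitochondrial genes were FARS2 (adjusted p = 0.00107), IARS2 (0.00872) and SARS2 (0.0222). For the genes lower in 3 lines without such a difference it was 0.142 for AARS2, 0.11 for EARS2, 0.108 for TARS2 and 0.665 for LARS2, which does not show that the lines were alike. With libraries rescaled to the same sum of FPKM the counts were 14 of 20 and 12 of 15, and with the same sum of reads 15 of 20 and 6 of 15, so the gap between the classes depends on the scaling.

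Most genes of the known ATF4-responsive subset were lower in MV3 and ES2. This list of 11 cytosolic genes (AARS, CARS, EPRS, GARS, IARS, MARS, NARS, SARS, TARS, WARS and YARS) had 9 lower and none higher in MV3, with a median log2 fold change of -0.35, and 7 lower in ES2, with a median of -0.25. In A549 1 was lower and 1 higher (median -0.08), and in PANC1 1 was lower and 2 higher (median 0.13). Of all genes tested, 19.5% were lower in MV3, 13.0% in ES2, 7.83% in A549 and 13.4% in PANC1 (26.8%, 17.9%, 11.4% and 17.3% of protein-coding genes). After rescaling to the same sum of FPKM, 9 of the 11 were lower in MV3, 3 in ES2 and 10 in PANC1. The 9 other cytosolic genes had 4 lower in MV3 (median -0.29), 3 lower and 1 higher in ES2 (median -0.067), 1 higher in A549 (median -0.063) and 1 lower in PANC1 (median 0.058). Of the listed genes not yet given values, NARS, EPRS, SARS, TARS and YARS were each lower in MV3, with -0.40, -0.35, -0.32, -0.31 and -0.41. YARS, SARS and CARS were lower in ES2, with -0.39, -0.25 and -0.38. YARS in PANC1 had 0.23 ± 0.073 (adjusted p = 0.0617), above siC in each library without passing the threshold, but -0.49 and called lower with the same sum of FPKM, and called higher with median-of-ratios scaling.

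Cytosolic genes with the promoter motif had the lower median in each line, with overlapping ranges. In MV3, 6 of the 7 genes with TGATGNAA were lower, with a median of -0.35 and a range of -0.71 to -0.12, and 5 of the 9 matched genes without it, with a median of -0.29 and a range of -0.42 to 0.029. In ES2 the counts were 4 of 7 and 4 of 9, with medians of -0.29 and -0.14. In A549 1 gene with the motif was lower and 1 higher and none without it was called, with medians of -0.19 and -0.08. In PANC1 1 was lower and 1 higher with it and 1 higher without it, with medians of -0.001 and 0.1. Across all genes tested, 19.5% were lower in MV3, 13.0% in ES2, 7.83% in A549 and 13.4% in PANC1 (26.8%, 17.9%, 11.4% and 17.3% of protein-coding genes). The shares higher were 5.93% in A549 and 11.3% in PANC1 (7.94% and 13.6% of protein-coding genes). No test was made of the difference between genes with and without the motif, and the match is a description of the letters in these windows only. CARS, whose window holds the exact letters, had -0.12 ± 0.039 (adjusted p = 0.0566) in MV3.

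Of the 8 enzymes of the multisynthetase complex (DARS, EPRS, IARS, KARS, LARS, MARS, QARS and RARS), 5 were lower in MV3 (median -0.20), against 1 lower and 1 higher in ES2 (median -0.014), 2 higher in A549 (median 0.078) and 1 lower in PANC1 (median 0.028). The share of all genes lower was 19.5% in MV3, 13.0% in ES2 and 13.4% in PANC1, and 5.93% were higher in A549. After rescaling to the same sum of FPKM all 8 were lower in PANC1, with a median of -0.715 against -0.213 in MV3, and with the same sum of reads 3 were, with medians of -0.134 and -0.145. LARS, the leucine enzyme, was the one lower in PANC1, at 22.4, 22.1 and 23.5 FPKM in siC and 18.9, 20.2 and 18.4 in siI1, with -0.24 ± 0.058 (adjusted p = 0.0296). It was also lower in MV3, with -0.21 ± 0.024 (adjusted p = 0.0011), and had 0.21 ± 0.064 (adjusted p = 0.0826) in A549. Of the scaffolds, AIMP1 was at 13.9, 14.7 and 14.5 FPKM in siC and 10.1, 8.14 and 8.85 in siI1 in PANC1 and at 12.2, 12.6 and 12.0 FPKM in siC and 10.2, 9.40 and 11.2 in siI1 in MV3. Its log2 fold changes were -0.65 ± 0.086 (adjusted p = 0.00394) in PANC1, -0.25 ± 0.064 (adjusted p = 0.0257) in MV3, -0.025 ± 0.057 (adjusted p = 0.794) in ES2 and 0.27 ± 0.088 (adjusted p = 0.107) in A549, and the difference between lines had an adjusted p of 1.86e-05. AIMP2 was at 50.7, 53.8 and 49.9 FPKM in siC and 66.5, 58.7 and 67.3 in siI1 in PANC1, with 0.31 ± 0.069 (adjusted p = 0.021), but -0.43 and 0.15, neither past the threshold, for libraries rescaled to the same sum of FPKM and of reads. EEF1E1 was lower in MV3, with -0.42 ± 0.093 (adjusted p = 0.0152), and had -0.34 ± 0.12 (adjusted p = 0.0821) in ES2. On the deposited scale, AIMP1 and AIMP2 were thus called in opposite directions in PANC1.

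The structural classes of synthetase, whose catalytic domains have unrelated folds, were called in similar numbers. Class I members had 9 of 17 lower in MV3, 8 of 18 in ES2, 2 of 17 in A549 and 3 of 17 in PANC1. Class II members had 10, 7, 3 and 3 of 17. Higher calls were 1 and 1 in MV3, 0 and 1 in ES2, 1 and 1 in A549, and 1 and 2 in PANC1. Of all genes, 19.5% were lower and 16.3% higher in MV3, 13.0% and 10.5% in ES2, 7.83% and 5.93% in A549, and 13.4% and 11.3% in PANC1. EPRS, which joins an enzyme of each class, was left out of both.

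ATF4 mRNA was lower in A549, ES2 and MV3, and most called genes of its amino acid response were lower in ES2 and MV3. ATF4 was at 77.1, 71.2 and 68.9 FPKM in siC and 46.0, 46.8 and 48.5 in siI1 in MV3 and at 90.7, 94.2 and 98.0 FPKM in siC and 76.4, 68.4 and 77.0 in siI1 in ES2. In A549 it was at 51.5, 56.1 and 55.4 FPKM in siC and 44.8, 45.8 and 46.8 in siI1 and in PANC1 at 58.9, 54.2 and 50.8 FPKM in siC and 54.2, 56.4 and 50.9 in siI1. The groups stood apart in the first 3 and overlapped in PANC1 on the deposited scale. Tested across genes, its log2 fold changes were -0.24 ± 0.051 (adjusted p = 0.0272) in A549, -0.35 ± 0.06 (adjusted p = 0.00865) in ES2, -0.61 ± 0.048 (adjusted p = 0.000359) in MV3 and -0.019 ± 0.072 (adjusted p = 0.878) in PANC1, with an adjusted p of 0.00015 for the difference between lines. With libraries rescaled to the same sum of FPKM, ATF4 was called lower in PANC1 too, at -0.77, while the same sum of reads gave -0.18, not past the threshold. These are levels of ATF4 mRNA, and the protein was not measured. Of the 24 listed response genes, ATF4 included, MV3 had 14 lower and 2 higher of 24 tested, ES2 13 and 1 of 23, A549 6 and 6 of 22, and PANC1 4 and 7 of 22. The medians of the list were -0.46, -0.40, -0.19 and 0.069. In the same order, 19.5%, 13.0%, 7.83% and 13.4% of all genes tested were lower and 16.3%, 10.5%, 5.93% and 11.3% higher. Of protein-coding genes, 26.8%, 17.9%, 11.4% and 17.3% were lower and 19.6%, 13.4%, 7.94% and 13.6% higher. In PANC1 the 7 higher genes became 4 with libraries rescaled to the same sum of reads and 0 with the same sum of FPKM, where 15 were lower.

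Single genes of this response differed in direction between lines. ASNS, asparagine synthetase, was at 13.5, 12.0 and 12.1 FPKM in siC and 7.38, 6.88 and 6.46 in siI1 in ES2 and at 9.04, 11.1 and 8.87 FPKM in siC and 15.9, 12.8 and 14.4 in siI1 in PANC1. Its log2 fold changes were -0.82 ± 0.075 (adjusted p = 0.00104) in ES2, -0.39 ± 0.054 (adjusted p = 0.00246) in MV3, 0.18 ± 0.14 (adjusted p = 0.483) in A549 and 0.55 ± 0.12 (adjusted p = 0.0182) in PANC1. PSAT1, of serine synthesis, followed with -0.45 in ES2, -0.78 in MV3 and 0.27 in PANC1, each past the threshold. CHAC1, a glutathione-degrading enzyme, had -0.90, -0.54 and 0.56 there. With libraries rescaled to the same sum of FPKM the PANC1 values of these 3 genes were below 0, at -0.18, -0.48 and -0.13, and with the same sum of reads the call of PSAT1 was lost, at 0.10. TRIB3, a pseudokinase that restrains ATF4, was higher in A549 with 0.87 ± 0.16 (adjusted p = 0.0194) and lower in ES2 with -0.46 ± 0.066 (adjusted p = 0.00457). DDIT3, which encodes the factor CHOP, passed the threshold in PANC1 with 0.47 ± 0.065 (adjusted p = 0.00465), and had 0.55 ± 0.14 (adjusted p = 0.0548) in A549, and with libraries rescaled to the same sum of FPKM its PANC1 value was -0.27. SLC7A11, the cystine transporter, was higher in A549 (0.65) and lower in ES2 (-0.31) and MV3 (-1.24). CEBPB was higher in A549 (0.55) and PANC1 (0.42, but -0.32 with the same sum of FPKM and 0.26 with that of reads, neither past the threshold) and lower in ES2 (-0.64).

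Other genes of the response had 1 direction in at least 3 lines. SLC7A5 and SLC3A2, the chains of the leucine transporter, were lower in A549, ES2 and MV3. SLC7A5 was at 158, 144 and 172 FPKM in siC and 47.9, 46.9 and 50.7 in siI1 in A549, with log2 fold changes of -1.69 ± 0.073 (adjusted p = 0.000369) in A549, -1.22 ± 0.10 (adjusted p = 0.000745) in ES2, -0.97 ± 0.06 (adjusted p = 0.00019) in MV3 and 0.22 ± 0.088 (adjusted p = 0.125) in PANC1. SLC3A2 had -0.73, -0.62, -0.56 and 0.11 in the same order, the last not past the threshold. SESN2, a leucine sensor, was lower in the same 3 lines, with -0.94, -1.25 and -0.46. XPOT, which exports tRNA from the nucleus, was lower in A549 (-0.68), MV3 (-0.68) and PANC1 (-0.85). CEBPG was lower in ES2 (-0.40), MV3 (-0.51) and PANC1 (-0.35). SHMT2, of mitochondrial one-carbon metabolism, was lower in all 4 lines, with -0.75 in MV3, -0.64 in ES2, -0.46 in A549 and -0.38 in PANC1. STC2, a secreted glycoprotein, was higher in all 4 on the deposited scale, with 1.37, 1.142, 0.17 and 0.45, the last of which was -0.26 with libraries rescaled to the same sum of FPKM and 0.29 with that of reads, neither past the threshold.

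**Figure D5:**
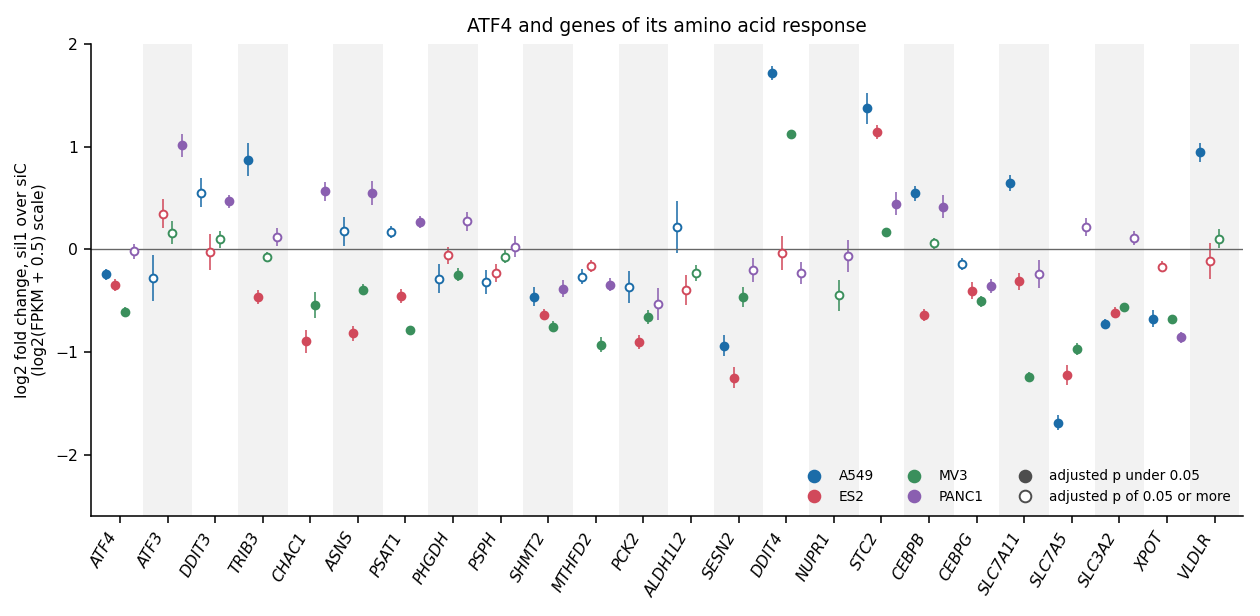
Log2 fold change (siI1 over siC, log2(FPKM + 0.5) scale, bars 1 SE) of ATF4 and 23 genes of its amino acid response in the 4 lines, filled where the adjusted p was below 0.05; a gene under the filter in a line has no point there. ATF4 is filled and below 0 in A549, ES2 and MV3 and lies at -0.019 in PANC1, and ASNS is filled below 0 in ES2 and MV3 and, on the deposited scale, above 0 in PANC1.

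Of 6 genes that sense uncharged tRNA or act on eIF2, 1 was lower in A549, 2 in ES2, 3 in MV3, with 1 higher, and 3 in PANC1, against 7.83%, 13.0%, 19.5% and 13.4% of all genes called lower there. EIF2S1, one of these 6, was lower in all 4 lines on the deposited scale, at 47.4, 46.3 and 46.0 FPKM in siC and 37.1, 36.7 and 35.6 in siI1 in MV3. Its log2 fold changes were -0.40 ± 0.07 (adjusted p = 0.0162) in A549, -0.34 ± 0.062 (adjusted p = 0.0106) in ES2, -0.35 ± 0.028 (adjusted p = 0.000406) in MV3 and -0.34 ± 0.097 (adjusted p = 0.0492) in PANC1, with an adjusted p of 0.938 for a difference between lines. Its PANC1 call was lost with median-of-ratios scaling, at -0.30 (adjusted p = 0.0669). IMPACT, an inhibitor of GCN2 activation, was higher in MV3 (0.17 ± 0.038 (adjusted p = 0.014)) and lower in PANC1 (-0.52 ± 0.089 (adjusted p = 0.00909)). Of the 4 genes that finish charging in mitochondria (MTFMT, QRSL1, GATB and GATC), GATC was lower in MV3, with -0.13 ± 0.04 (adjusted p = 0.0424), and no other was called in any line. Of the 3 proofreading genes, DTD1 and DTD2 were lower in MV3, with -0.13 and -0.30, and AARSD1 was not called.

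RARS, QARS, CARS2, NARS2, PARS2, WARS2 and VARS2 passed the threshold in no line on the deposited scale. In PANC1, RARS, QARS, CARS2 and NARS2 were called lower with libraries rescaled to the same sum of FPKM. QARS was called lower there with the same sum of reads too, at -0.31. For RARS, the most abundant, the 95% intervals of the log2 fold change were -0.088 to 0.14 in MV3, -0.14 to 0.11 in ES2, -0.17 to 0.15 in A549 and -0.06 to 0.17 in PANC1. QARS, the glutamine enzyme, had intervals of -0.09 to 0.12, -0.27 to 0.25, -0.43 to -0.06 and -0.34 to 0.04 in the same order. The mitochondrial genes CARS2 and NARS2 had intervals in MV3 of -0.23 to 0.032 and -0.12 to 0.15. PARS2 and WARS2 were at low levels, with 15 to 50 reads per library outside MV3 for PARS2 and an interval of -0.051 to 1.03 in PANC1 and of -0.38 to 0.20 in ES2. VARS2 had -0.19 ± 0.18 (adjusted p = 0.502) in ES2.

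IGF2BP1 is known to bind 3′UTRs, and the synthetase genes have short ones. The median of the longest annotated 3′UTR (GENCODE release 44) was 633 nt over the 36 genes, 516 nt for the cytosolic and 684 nt for the mitochondrial genes, against 1537.5 nt over 9590 protein-coding genes tested in every line. LARS2 had the longest, with 7199 nt, and VARS the shortest, with 79 nt. Across genes, Spearman's rho between this length and the mean log2 fold change over lines was -0.103 over all 36 genes, 0.152 over the 20 cytosolic and -0.382 over the 16 mitochondrial genes, given as a description, since the genes share libraries and are no replicates. Binding of IGF2BP1 to these transcripts was not measured in these data.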

How the data were processed

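Total RNA of 24 libraries (3 siC and 3 siI1 in each of A549, ES2, MV3 and PANC1) had been depleted of ribosomal RNA and sequenced with a directional kit. Per the labels and methods, the authors clipped reads with cutadapt 1.14, aligned them to hg38 with HISAT2 2.1.0, counted them per gene with featureCounts 1.5.3 on an Ensembl annotation and scaled them with edgeR 3.30.3. The deposited values, 1 table per line, are FPKM that the authors made from those counts by the gene length and the scaled library total (the unit was worked out from the values). Whether counting used strand is not given in the sources used here. A length column, in bases, is also from the authors. Their own log2 fold change, p-value and FDR per gene were not used. All values (100%) were whole multiples of 1 read within 0.01 of a read, and the recovered reads gave the depth.

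The 36 genes and all lists were chosen with earlier results of these data known. Each line was tested over its 6 libraries with limma 3.58.1 (R 4.3.3; eBayes with trend, two-sided) on log2(FPKM + 0.5), for genes whose mean reached 0.5 FPKM, adjusted by Benjamini-Hochberg over all genes tested (18411 in A549, 16920 in ES2, 16380 in MV3, 15846 in PANC1). The pseudocount understates changes of low genes. Differences between lines were tested over 24 libraries and 12816 genes. The methods call the 3 libraries of a condition biological replicates. Replicates differed beyond sampling noise (chi-square per gene 1.54 to 15.1). Values per library are given for members called in 1 direction in at least 3 lines, called in opposite directions, or among the 2 largest falls or rises called in a line, 16 genes, and for others where a result turns on them. Listed genes are named when called 1 way in at least 3 lines or in opposite directions, besides ATF4, DDIT3, ASNS, TRIB3, AIMP1, AIMP2 and EEF1E1; any further gene named was picked with its values in view. Scripts were tested on simulated data. The closing section gives 16 alternatives. Coordinates, exon overlaps and 3′UTRs are from GENCODE release 44 (hg38), newer than the authors' annotation. Promoters are from RefSeq. Python 3.11.15 was used for tables.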

Additional observations from a re-analysis of the deposited data

Results flagged for a closer look

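The change after knockdown differed between lines, by the F test over 24 libraries, for 20 genes. The adjusted p was 0.00013 for AARS, 0.0381 for CARS, 0.000193 for DARS, 6.03e-05 for EPRS, 0.00984 for FARSA, 0.00337 for FARSB and 0.000285 for GARS. It was 0.000239 for HARS, 0.00716 for IARS, 0.00193 for KARS, 6.36e-05 for LARS, 0.00561 for MARS, 0.00474 for NARS and 0.00055 for SARS. It was 0.0288 for TARS, 5.44e-05 for WARS, 9.4e-05 for YARS, 0.00107 for FARS2, 0.00872 for IARS2 and 0.0222 for SARS2. In EPRS the log2 fold changes were 0.16 in A549, 0.14 in ES2, -0.093 in PANC1 and -0.35 in MV3, and in LARS 0.21, 0.036, -0.24 and -0.21. In YARS they were 0.23 in PANC1, -0.23 in A549, -0.39 in ES2 and -0.41 in MV3, and in HARS 0.12, -0.15, -0.40 and -0.29.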

How the results depend on the processing

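Each result was recomputed under 16 alternatives. One of them, libraries rescaled to the same sum of FPKM, was chosen after seeing the data. Of the 35 calls of genes given with values per library, 17 passed the threshold in every alternative that kept their sign. These 17 include WARS and FARS2 in PANC1, whose sign turned with libraries rescaled to the same sum of FPKM. Of 560 single values, 452 passed the threshold with the same sign. With libraries rescaled to the same sum of FPKM, GARS, WARS and FARS2 in PANC1 reversed, to -0.519, -0.295 and -0.16. This scaling gave 1 gene higher in A549, 6 lower in ES2, 0 higher in MV3, and 30 lower and 0 higher in PANC1, with medians of -0.115 for cytosolic genes in ES2 and of -0.675 (cytosolic) and -0.715 (mitochondrial) in PANC1. With the same sum of reads there were 13 lower in PANC1 and 3 genes lower in all 4 lines, with a cytosolic median in PANC1 of -0.092 and a mitochondrial median in MV3 of -0.037. limma voom on recovered reads gave 9 lower and 4 higher in A549 and 3 lower in all 4 lines. With no intensity trend 2 were lower and 1 higher in A549, 1 was lower in PANC1 and 0 in all 4 lines. Without the filter on low values 3 were lower in A549, and a minimum of 1 FPKM left 2 lower in all 4 lines. Beyond the alternatives' own construction, the cause of these shifts was not tested.

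Leaving out 1 library at a time gave 2 to 3 lower and 1 to 3 higher in A549, 9 to 12 lower in ES2, 1 to 3 higher in MV3, 0 to 4 lower in PANC1 and 0 to 1 lower in all 4 lines. The count that differed between lines, 20 in the reported fit, was 16 to 26 over all alternatives, and genes higher in all 4 lines stayed at 0. Same-numbered siC and siI1 libraries did not deviate together (correlations -0.0562 to 0.0711), so the numbers do not pair them. A fit with the replicate number as a block gave 0 lower and 1 higher in A549, 0 higher in ES2, 1 lower in PANC1 and 0 lower in all 4 lines. Depth limits A549 and the low mitochondrial genes most: half-widths of the 95% intervals had a median of 0.256 (log2) for mitochondrial genes in A549 and 0.103 for cytosolic genes in MV3.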
